A study of Mus musculus with 21 samples.

Results

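The kinesins are the microtubule motor proteins of the superfamily to which KIF11 belongs, and 41 of their genes other than *Kif11* were described here in fully grown mouse oocytes. The genes were taken from a list of kinesin symbols and matched by symbol to the Ensembl gene IDs of the count and TPM tables, in which 41 of 41 were found among 54232 genes. The study deleted *Kif11* in oocytes to ask how much of this motor meiosis needs, and sequenced poly(A) RNA to measure the *Kif11* that remained. Here the same libraries were used to ask which other kinesins these oocytes express and how each stood when *Kif11* was reduced or lost. Each of the 21 libraries was made from 3 pooled oocytes at the germinal vesicle stage. The methods, which describe 17 libraries, give 1 or 2 from each mouse, so libraries of a group are not all from separate animals. For the other libraries this is not given. The wt/fl library names share prefixes in pairs, and the labels do not say whether a prefix marks a mouse. The p-values below measure the spread between libraries.

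The libraries fall into 6 genotypes, all of them from mice with a floxed *Kif11* allele made on the C57BL/6 background. The methods give females 3 to 4 months old, injected with eCG or HyperOva, with oocytes collected 48 h later. The wt/fl oocytes (4 libraries) carried a wild-type and a floxed allele and no Cre, and were the control. The wt/fl Spo11-Cre oocytes (5 libraries) carried the same alleles with Spo11-Cre, which acts in early meiotic prophase. The fl/del oocytes (4 libraries) carried a floxed allele and a constitutively deleted allele without Cre, so that the deletion was present in every cell of the animal. The fl/del Spo11-Cre oocytes (4 libraries) carried these alleles with Spo11-Cre. Oocytes of fl/fl mice carried floxed alleles only, with Gdf9-Cre (2 libraries) or Zp3-Cre (2 libraries), each Cre driven by a promoter active in growing oocytes. The fl/fl libraries are not among the 17 that the methods describe, so the driver, the genotype and the set of libraries cannot be told apart in any comparison of fl/fl oocytes with the others. Names of those 17 libraries hold the letter A in the groups without Cre and B or C in the Spo11-Cre groups. The labels do not say what the letter marks.

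Kinesins share a motor domain that walks along microtubules on ATP, and differ in the cargo, the direction and the microtubule they work on. KIF11 is the tetrameric motor that slides antiparallel microtubules apart and so separates the spindle poles, which in oocytes have no centrioles. Around it, mitotic kinesins shorten microtubules, push chromosome arms, hold kinetochores or build the central spindle, and another large set carries vesicles and organelles.

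*Kif11* (ENSMUSG00000012443, chr19:37376403-37421859) checked the labels. Counted over all exons, it stood at 38.8, 43.1, 24.4 and 32.4 CPM in the wt/fl libraries. CPM here is the count scaled to a library size of 1000000 adjusted by TMM, a scaling that removes differences in RNA composition. In wt/fl Spo11-Cre it was 25.7, 31.1, 22.4, 27.9 and 18.3 CPM, and in fl/del it was 13.3, 13.2, 7.56 and 14.4 CPM. The 2.75, 1.54, 1.08 and 1.80 CPM of fl/del Spo11-Cre made it the lowest group, at 5.17% of the wt/fl mean, and no library of that group reached any library of another. The fl/fl libraries lay between, at 4.88 and 4.70 CPM with Gdf9-Cre and at 7.20 and 4.13 CPM with Zp3-Cre. Total counts ran from 7205010 to 18454549 per library, with the fl/fl libraries and replicate 3 of fl/del at the low end (at most 10759741). A gene without a count in a library has a limit of 3 counts, equal to 0.163 to 0.416 CPM, which covers counting error only. The 12 oocyte markers together held 28280 to 38071 TPM in every library. The 16 granulosa and cumulus markers held 35.4 to 69.8 TPM. Of this, *Cyp19a1* held 24.8 to 44.8 TPM and *Nr5a2* 8.63 to 18.6 TPM. *Inha* reached 9.14 TPM and *Hsd17b1* 4.86 TPM at most, and *Foxl2*, *Wt1*, *Areg* and *Tnfaip6* were at 0 in every library. The 6 theca and stroma markers held 0.416 to 4.55 TPM, and the 5 leukocyte and blood markers 1.17 to 16.9 TPM.

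Fully grown wt/fl oocytes expressed 24 of the 41 kinesins, taking a mean of at least 1 TPM over the 4 wt/fl libraries as expressed. TPM, computed by the authors, divides counts by gene length and scales each library to 1000000, and is the scale on which genes are compared here. The highest was *Kif22* (ENSMUSG00000030677, chr7:127027729-127042471), a chromokinesin that binds DNA and pushes chromosome arms away from the poles. *Kif17*, a kinesin-2 motor known from dendrites and cilia, and *Kif23*, the motor of the centralspindlin complex in the central spindle, followed. Together the 10 highest kinesins held 92.8% of the summed kinesin TPM, and the 17 under the level held 0.288%.

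**Figure D1:**
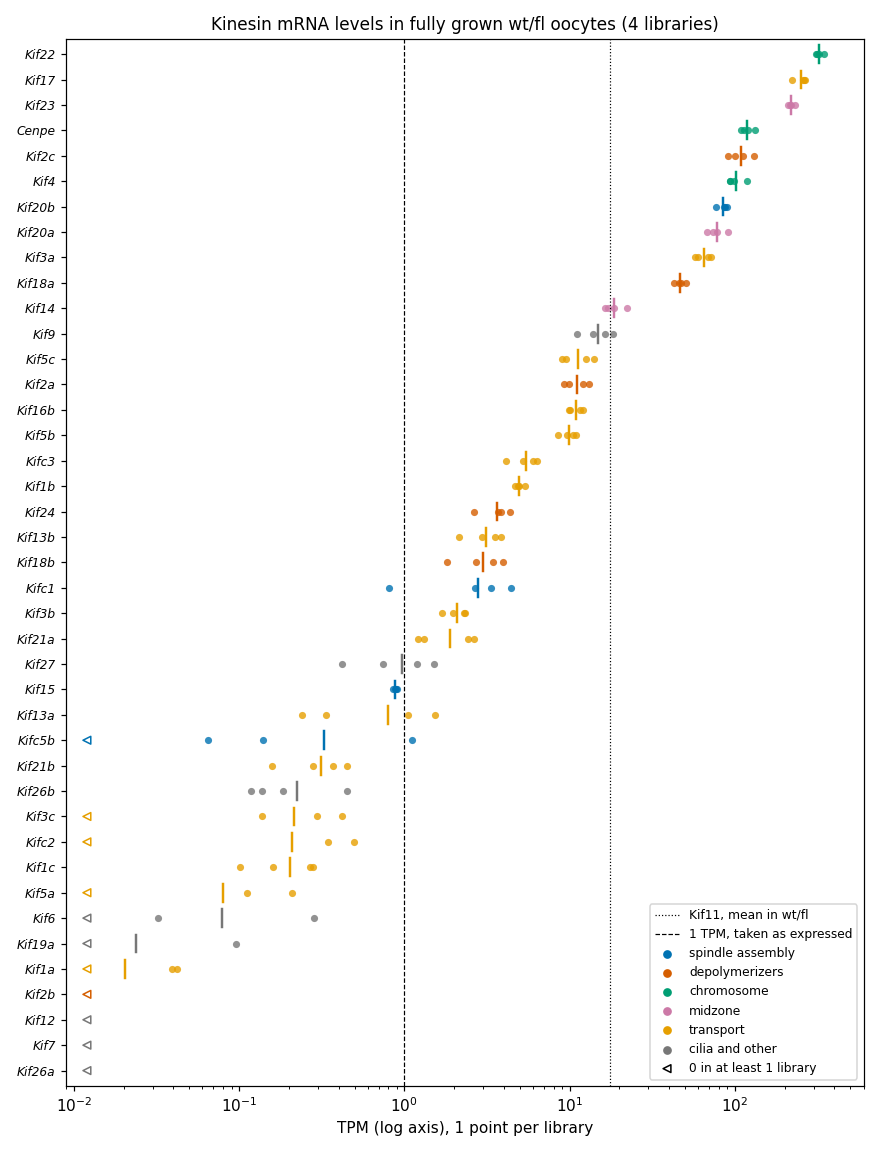
TPM of the 41 kinesins in the 4 wt/fl libraries, on a log axis, with 1 point per library, a bar at the mean and colours for the roles, in order of the mean. *Kif22* stands highest at 324 TPM, 24 kinesins lie at or above the dashed line at 1 TPM, the dotted line marks the mean of *Kif11* at 17.6 TPM, and open triangles mark kinesins with a value of 0 in at least 1 library.

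The levels of the first 3 were 346, 316, 325 and 310.2 TPM for *Kif22*. For *Kif17* they were 266, 259, 221 and 262 TPM. For *Kif23* they were 209.8, 219.8, 214 and 232 TPM. *Kif22* lay above the other two in every wt/fl library without overlap, while the ranges of *Kif17* and *Kif23* overlapped. These were also the 3 highest kinesins in 21 of 21 libraries of the 6 groups, with *Kif22* first in 19 of them. In the other two, replicate 2 of fl/fl Gdf9-Cre and replicate 1 of fl/fl Zp3-Cre, *Kif17* was first. *Kif17* was second in 11 libraries and *Kif23* in 8.

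Next in order came *Cenpe*, the kinetochore motor that brings chromosomes to the spindle equator, with 113, 120.0, 132 and 109 TPM in wt/fl. *Kif2c*, the depolymerase of centromeric microtubules, held 91.2, 113, 101 and 131 TPM. *Cenpe* lay below *Kif23* without overlap, while the ranges of *Cenpe*, *Kif2c* and *Kif4* overlapped. *Kif4*, the X-linked chromokinesin, had a mean of 101 ± 11.6 TPM (SD, n = 4). *Kif20b*, a slow plus-end motor of late division, stood at 84.6 ± 5.57 TPM, and *Kif20a*, which brings the chromosomal passenger complex to the central spindle, at 77.4 ± 9.71 TPM. *Kif3a*, a subunit of heterotrimeric kinesin-2, was at 64.7 ± 6.93 TPM, and *Kif18a*, which dampens chromosome movement at plus ends, was at 46.7 ± 3.16 TPM. A gap followed, in which *Kif18a* stood above *Kif14* without overlap. Of the 23 neighbouring pairs among the 24 expressed kinesins, the ranges of 7 did not overlap over the wt/fl libraries and those of 16 did.

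The other 14 expressed kinesins lay between 18.6 and 1.90 TPM, at or below the level of *Kif11* itself but for *Kif14*. *Kif14*, a cytokinesis motor, was at 18.6 ± 2.67 TPM, beside *Kif11* at 17.6 ± 4.44 TPM. *Kif9*, a motor of motile cilia, was at 14.9 TPM, the conventional kinesin heavy chains *Kif5c* and *Kif5b* at 11.3 and 9.85 TPM, the spindle pole depolymerase *Kif2a* at 11.1 TPM and the endosome motor *Kif16b* at 10.9 TPM. The remaining 8, in order, were *Kifc3* (5.43 TPM), *Kif1b* (4.95 TPM), *Kif24* (3.64 TPM), *Kif13b* (3.12 TPM), *Kif18b* (2.99 TPM), *Kifc1* (2.80 TPM), *Kif3b* (2.08 TPM) and *Kif21a* (1.90 TPM). Per length *Kif3a* thus stood far above *Kif3b*, the subunit it pairs with, in every wt/fl library.

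Of the 17 kinesins under 1 TPM, *Kif27* (0.967 TPM), *Kif15* (0.878 TPM) and *Kif13a* (0.793 TPM) came nearest the level, next to *Kif21a* and *Kif3b* just above it. *Kif15* is the plus-end motor that can keep spindle poles apart when KIF11 is inhibited. Its wt/fl values were the most even of the kinesins, at 0.897, 0.885, 0.848 and 0.88 TPM from 50 to 58 counts a library. This did not hold over the 21 libraries, where its CPM had a coefficient of variation (CV) of 37.4%. *Kifc5b*, a close copy of *Kifc1*, was at 0.328 TPM, and *Kif21b*, *Kif26b*, *Kif3c*, *Kifc2* and *Kif1c* were between 0.203 and 0.315 TPM. *Kif5a*, *Kif6*, *Kif19a* and *Kif1a*, motors of neurons and cilia for the most part, had means of 0.0802, 0.0790, 0.0239 and 0.0203 TPM. *Kif7* and *Kif26a* had no count in wt/fl, with 4 counts in 1 library and 26 counts over 3 libraries elsewhere. *Kif2b* and *Kif12* had no count in any of the 21 libraries.

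By role, the 3 chromosome motors *Kif22*, *Cenpe* and *Kif4* were all expressed and held 36.1% of the summed kinesin TPM in wt/fl. The 3 central spindle motors *Kif23*, *Kif20a* and *Kif14* were all expressed and held 20.9%. Of the 6 depolymerases and plus-end regulators 5 were expressed, with 11.5%, and *Kif2b* was the exception. Of the 4 kinesins grouped with spindle assembly only *Kif20b* and *Kifc1* were expressed, with 5.89%, nearly all of it *Kif20b*. In wt/fl, *Kif15* had 209 counts and *Kifc1* 208, over merged exon lengths of 11020 and 3414 bases. The level of 1 TPM thus parted *Kifc1* from *Kif15* by gene length and not by the number of counts. Of the 17 transport kinesins 10 were expressed, with 24.5%, of which *Kif17* had most. Of the 8 kinesins of cilia and other functions only *Kif9* was expressed, with 1.08% for the whole set.

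Some of these values rest on shared sequence or on overlapping genes. *Kifc1* and *Kifc5b* shared 19.8% and 20.8% of their 100-base exon windows with each other, so reads there may map to both. The exons of *Kif20a* overlapped those of *Cdc23* on the other strand over 29.3% of their bases, those of *Kif2a* overlapped *Dimt1* over 19.2% and those of *Kif4* overlapped *Pdzd11* over 15.1%. The library kit does not mark strand. For *Kif22* the overlap was 1.96%, and for *Cenpe*, *Kif20b*, *Kif23* and *Kif3a* it was 0.

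Between groups, the kinesins as a whole summed to less TPM in the rest of the Spo11-Cre background than in wt/fl. Their summed TPM was 1505 ± 38.4 in wt/fl (SD, n = 4), 1280.5 ± 80.0 in wt/fl Spo11-Cre (n = 5), 1363 ± 52.0 in fl/del (n = 4) and 1323 ± 93.9 in fl/del Spo11-Cre (n = 4). It was 1498 and 1143 TPM in the fl/fl Gdf9-Cre libraries and 1069 and 1339.5 TPM in the fl/fl Zp3-Cre libraries. The wt/fl libraries (1454 to 1543 TPM) did not overlap those of the other 3 groups of the background, whose highest was 1404 TPM. Since TPM shares a fixed total among all genes, tests were made on the counts. Of the 24 expressed kinesins, 20 kept the mean CPM of all these 3 groups within 25% of wt/fl, and 8 did so with the fl/fl groups included. Among the 10 highest kinesins the group means of the background lay between 72.7% of wt/fl, for *Kif20a* in wt/fl Spo11-Cre, and 116% of it, for *Kif18a* in the same group.

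**Figure D2:**
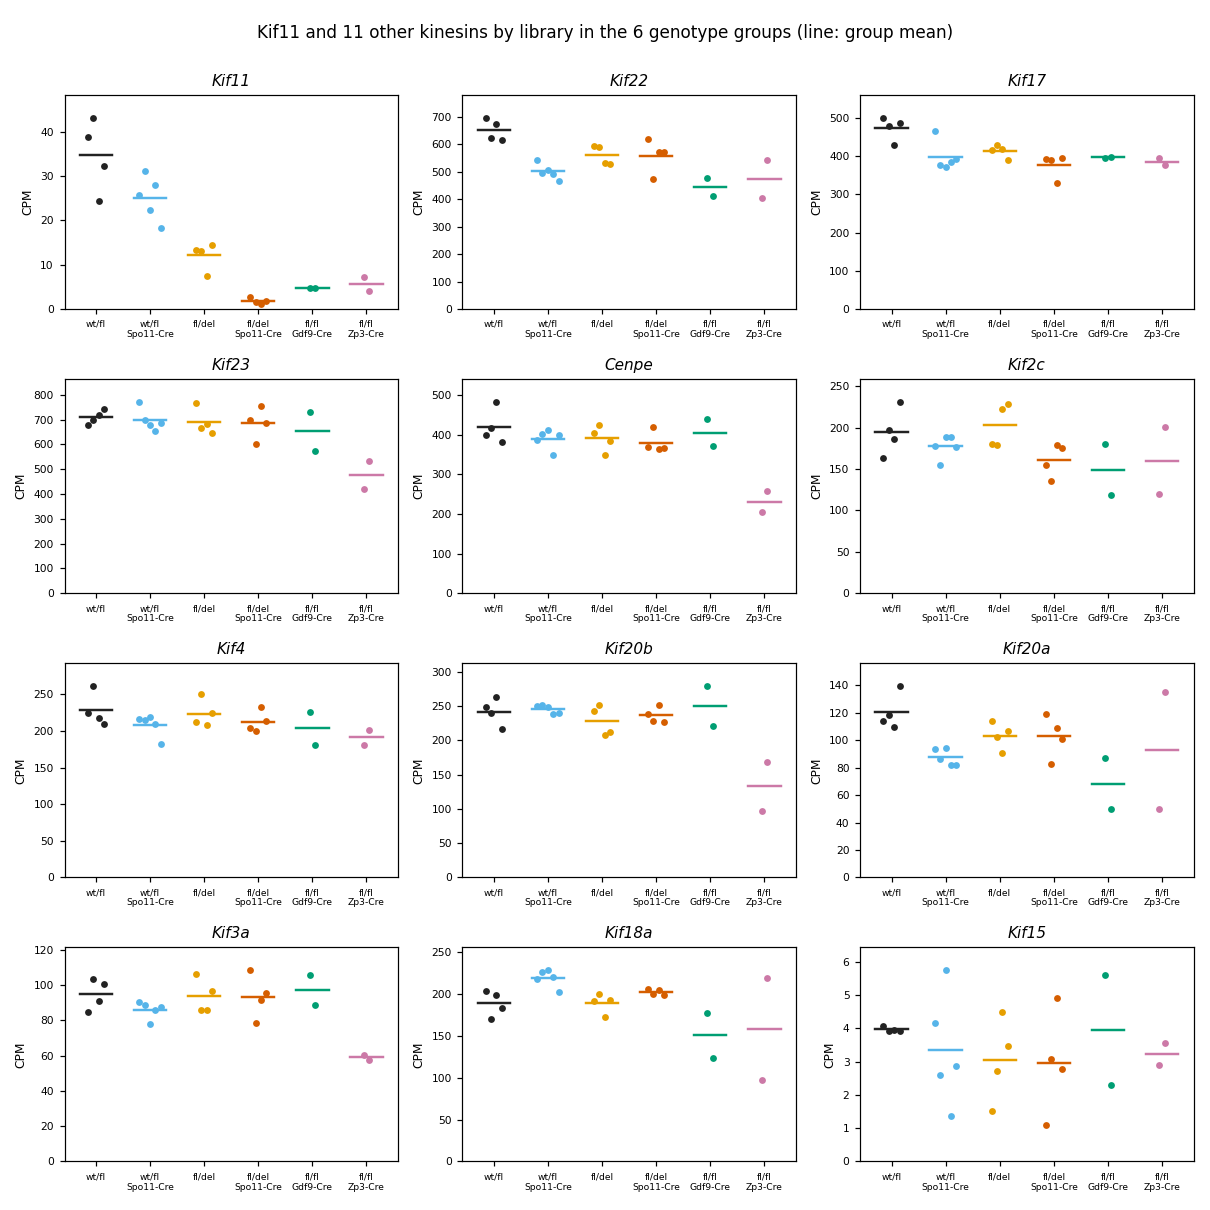
CPM of *Kif11* and 11 other kinesins in each of the 21 libraries by genotype group, with 1 point per library, a line at the group mean and axes from 0. *Kif11* fell from 34.7 CPM in wt/fl to 1.79 CPM in fl/del Spo11-Cre. In the other groups the means were 68.4% to 86.0% of wt/fl for *Kif22*, 56.7% to 85.9% for *Kif20a* and 79.6% to 87.4% for *Kif17*. They were 83.7% to 97.9% for *Kif4* and 79.9% to 116% for *Kif18a*. *Cenpe*, *Kif20b*, *Kif3a* and *Kif23* were low in both fl/fl Zp3-Cre libraries.

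Oocytes with the least *Kif11*, fl/del Spo11-Cre, were set against wt/fl. The Cre transgene, the constitutively deleted allele and the loss of the floxed allele cannot be told apart in this comparison. The letter in the library names also differs between these groups and cannot be told apart from them. No kinesin was called in edgeR's quasi-likelihood test at a Benjamini-Hochberg adjusted p under 0.05, where 0.197% of the 22383 genes tested were called. The test was adjusted over all these genes, and 38 of the 41 kinesins had enough counts to enter it, *Kif2b*, *Kif7* and *Kif12* being left out. At an unadjusted p under 0.05 there were 6 kinesins, beside 2334 of the 22383 genes. DESeq2 called 1 kinesin, *Kif17*, beside 166 of all genes. The median log2 fold change of the 24 expressed kinesins was -0.09, beside 0.01 for all genes, and 18 of the 24 lay below 0. For 20 of the 24 the 95% interval of the fold change stayed within 2-fold in either direction, so changes of that size were outside the interval for these. In bulk RNA of 3 oocytes, fewer copies in every oocyte and a loss in some of the pooled oocytes cannot be told apart.

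*Kif17* came nearest the threshold. Its 391, 390.3, 330.1 and 393 CPM in fl/del Spo11-Cre lay below all of its 499, 477, 429 and 485 CPM in wt/fl. The level was 79.7% of wt/fl (log2 fold change -0.33 ± 0.09, SE), with an edgeR adjusted p of 0.0843. Without replicate 3 of wt/fl, the lowest of the controls, *Kif17* was called. It was called as well with no filter on low counts, with the counts of about 1 per read pair and with the replicate block. These settings called 185, 83 and 230 of all genes, beside 44 in the main fit, and replicate numbers did not pair libraries. Apart from DESeq2, no other alternative called *Kif17*. Replicate 3 of fl/del Spo11-Cre, at 330.1 CPM, stood apart from the rest of its group. Relative to wt/fl, *Kif17* held 84.2% with Spo11-Cre and the wild-type allele (adjusted p = 0.0946 in edgeR) and 87.3% in fl/del (adjusted p = 0.580 in edgeR). All these comparisons share the 4 wt/fl libraries.

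The spindle motors that could work with or against KIF11 were *Kif15* and *Kifc1*. *Kif15* had 1.09, 3.09, 4.91 and 2.77 CPM in fl/del Spo11-Cre and 4.05, 3.92, 3.96 and 3.93 CPM in wt/fl. The values in fl/del Spo11-Cre lay on either side of those of wt/fl, and the log2 fold change was -0.41 ± 0.46 (SE), with a 95% interval of 0.398 to 1.42 times wt/fl and an edgeR adjusted p of 0.828. *Kifc1*, the minus-end motor that draws poles together, had 2.24, 3.43, 2.33 and 1.95 CPM against 6.15, 4.55, 1.16 and 3.70 CPM in wt/fl. The groups overlapped, the log2 fold change was -0.64 ± 0.48 (SE), and the 95% interval ran from 0.329 to 1.25 times wt/fl (adjusted p = 0.678 in edgeR). With 15 to 88 counts a library in these groups, the data do not tell changes in *Kif15* and *Kifc1* within those intervals from no change.

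Among the chromosome motors, *Cenpe* was at 368, 418, 363 and 366 CPM in fl/del Spo11-Cre and at 399.7, 415, 482 and 382 CPM in wt/fl, with a log2 fold change of -0.15 ± 0.09 (SE, adjusted p = 0.574 in edgeR). *Kif22* was at 617, 473, 573 and 571 CPM against 695, 622, 675 and 616 CPM, with a log2 fold change of -0.22 ± 0.08 (SE, adjusted p = 0.345 in edgeR). For both genes a fl/del Spo11-Cre library lay within the wt/fl range. *Kif4* was at 204, 199.5, 233 and 213 CPM against 224, 261, 218 and 209.6 CPM, at 93.2% of wt/fl with overlapping groups (adjusted p = 0.762 in edgeR).

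Of the depolymerases, *Kif2c* stood at 155, 136, 179 and 176 CPM in fl/del Spo11-Cre and at 163, 197, 186 and 231 CPM in wt/fl. The groups overlapped, with a log2 fold change of -0.27 ± 0.10 (SE) and an edgeR adjusted p of 0.375. *Kif2a* stood at 27.8, 29.2, 22.6 and 31.0 CPM against 31.4, 33.7, 27.0 and 23.8 CPM, with overlapping groups and a log2 fold change of -0.07 ± 0.18 (SE, adjusted p = 0.962 in edgeR). *Kif18a* stood at 206, 199.9, 205 and 199 CPM against 203, 169.6, 198 and 183 CPM, the narrower range lying in the upper part of that of wt/fl and just above it, with a log2 fold change of 0.11 ± 0.09 (SE, adjusted p = 0.729 in edgeR).

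Of the motors of late division, *Kif23* was at 697, 603, 754 and 687 CPM in fl/del Spo11-Cre and at 679.6, 698, 716 and 743 CPM in wt/fl, at 96.7% of wt/fl (adjusted p = 0.913 in edgeR). *Kif20a* was at 119, 82.5, 109 and 101 CPM against 114, 119, 109 and 139 CPM, with a log2 fold change of -0.23 ± 0.11 (SE, adjusted p = 0.463 in edgeR). *Kif20b* was at 239, 227, 252 and 227 CPM against 248, 239.7, 263 and 216 CPM, at 97.9% of wt/fl (adjusted p = 0.970 in edgeR). The groups overlapped for all 3 of these genes, of which *Kif20b* belongs to the spindle assembly set. For *Kif23* the 95% interval was 0.865 to 1.08 times wt/fl and for *Kif20b* it was 0.866 to 1.11 times wt/fl.

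**Figure D3:**
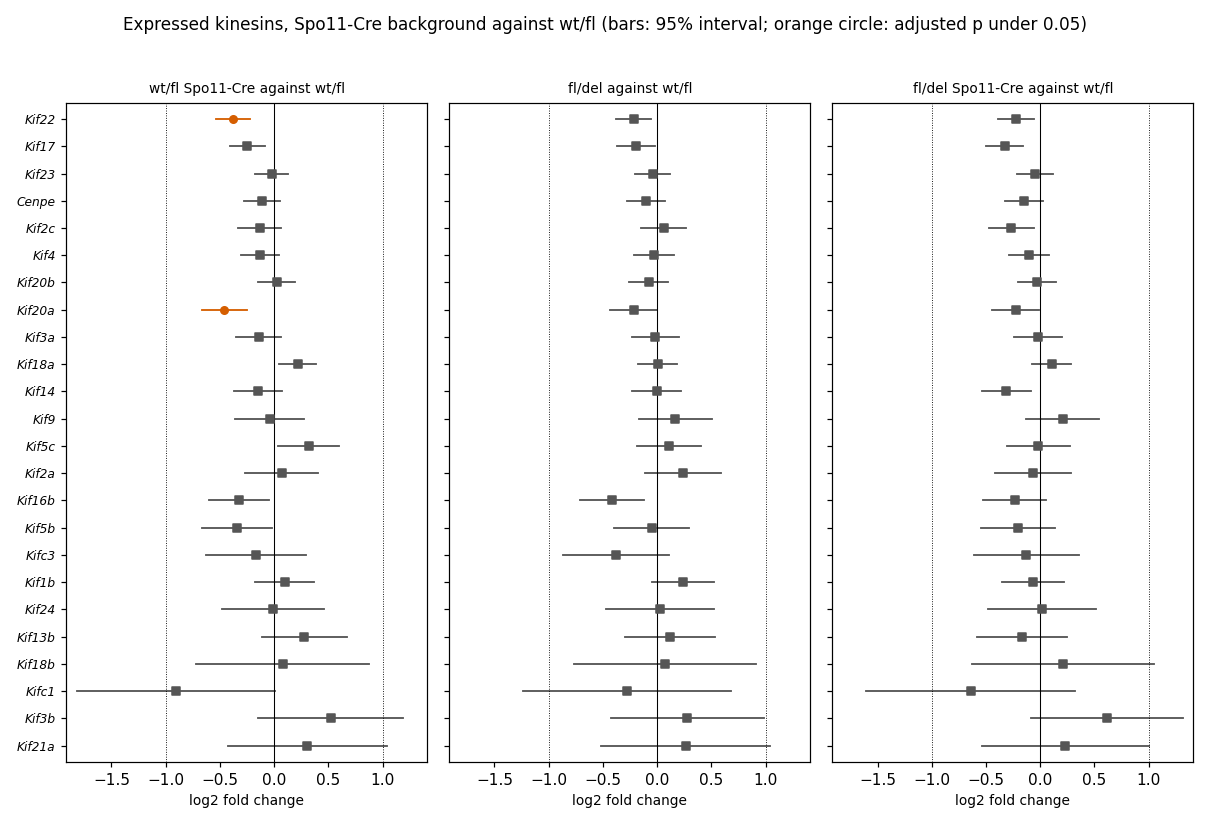
Log2 fold change of the 24 expressed kinesins against wt/fl in wt/fl Spo11-Cre, fl/del and fl/del Spo11-Cre, with bars for the 95% interval, orange circles for an adjusted p under 0.05 in edgeR and dotted lines at 2-fold. *Kif22* and *Kif20a* pass in wt/fl Spo11-Cre, at -0.38 and -0.46, and no kinesin passes in the other panels.

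The del allele without Cre gave a like picture. In fl/del against wt/fl, 0 of the 38 kinesins tested were called in edgeR, where 0.0223% of all genes were called. There were 4 at an unadjusted p under 0.05, beside 1906 of the 22383 genes tested. DESeq2 called 0 kinesins, beside 25 of all genes. The median log2 fold change of the expressed kinesins was -0.01, and 22 of the 24 had an interval within 2-fold. *Kif22* was at 592, 589, 532 and 529 CPM in fl/del, all below its wt/fl values, at 86.0% of wt/fl (adjusted p = 0.533 in edgeR).

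In the background, edgeR called kinesins when wt/fl Spo11-Cre oocytes were compared with the wt/fl control. The Cre transgene and the loss of the floxed allele, with *Kif11* at 72.4% of wt/fl, cannot be told apart in it. The letter in the library names differs between these groups too, and cannot be told apart from them. Of the 38 tested, 2 fell in wt/fl Spo11-Cre against wt/fl and 0 rose, where 2.19% of all genes were called in either direction and 1.33% as lower. At an unadjusted p under 0.05 there were 8, beside 3358 of the 22383 genes tested. DESeq2 called 4 kinesins, beside 931 of all genes. These were *Kif22*, *Kif20a*, *Kif17* and *Kif18a*. *Kif22* was at 544, 494, 507, 491 and 466 CPM in wt/fl Spo11-Cre and at 695, 622, 675 and 616 CPM in wt/fl. No library of the former reached the latter, and the level fell to 76.8% of wt/fl (log2 fold change -0.38 ± 0.08, SE, adjusted p = 0.00309 in edgeR). Over the alternative settings the adjusted p of *Kif22* ran from 7.46e-05 to 0.0259.

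*Kif20a* was at 93.5, 86.1, 94.2, 82.2 and 81.7 CPM in wt/fl Spo11-Cre and at 114, 119, 109 and 139 CPM in wt/fl. The groups did not overlap, and the level fell to 72.7% of wt/fl (log2 fold change -0.46 ± 0.10, SE, adjusted p = 0.00687 in edgeR). Reads over the 29.3% of *Kif20a* exon bases shared with *Cdc23* could belong to either gene. This call was lost without replicate 4 of wt/fl, its highest control (adjusted p = 0.0710 in edgeR), and in a fit of all 21 libraries (adjusted p = 0.120 in edgeR). *Kif18a*, named here after its values were seen because DESeq2 called it, was at 218, 226, 228, 219.9 and 202 CPM against 203, 169.6, 198 and 183 CPM, a log2 fold change of 0.22 ± 0.09 (SE, adjusted p = 0.193 in edgeR) with 1 overlapping library in each group. *Kif18a* was thus the only of the 4 that lay above wt/fl.

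Between the Spo11-Cre groups, fl/del Spo11-Cre against wt/fl Spo11-Cre, 0 of 38 kinesins were called in edgeR, where 0.0357% of all genes were called. An unadjusted p under 0.05 was held by 4 kinesins and by 1591 of 22383 genes. DESeq2 called 0 kinesins and 14 of all genes. *Kif22* stood at 112% and *Kif20a* at 118% of wt/fl Spo11-Cre there, both with an edgeR adjusted p of 0.702. Whether the difference made by Spo11-Cre differs between wt/fl and fl/del was tested as an interaction. In it edgeR called 0 of 38 kinesins, with 0.103% of all genes called. An unadjusted p under 0.05 was held by 6 kinesins and by 2311 of 22383 genes. DESeq2 called 1 kinesin, *Kif22*, and 95 of all genes. The interaction was 0.38 ± 0.11 on the log2 scale for *Kif22* (SE, adjusted p = 0.183 in edgeR) and 0.45 ± 0.15 for *Kif20a* (SE, adjusted p = 0.255 in edgeR).

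The fl/fl oocytes, in which Cre acts in the growing oocyte, held the largest number of kinesins called. Against wt/fl, in a fit of 21 libraries, 5 of 38 kinesins fell in the mean of the Gdf9-Cre and Zp3-Cre groups and 0 rose, where 2.79% of all genes were called in either direction and 1.77% as lower. At an unadjusted p under 0.05 there were 12, beside 3312 of the 23225 genes tested. DESeq2 called 7 kinesins, beside 1109 of all genes. The 5 called by edgeR were the chromosome motors *Kif22* and *Cenpe* and the late division motors *Kif20a*, *Kif20b* and *Kif23*. The median log2 fold change of the expressed kinesins was -0.17, beside -0.03 for all genes.

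*Kif22* was at 478 and 413 CPM with Gdf9-Cre and at 402 and 541 CPM with Zp3-Cre. All 4 values lay below the lowest wt/fl library, at 616 CPM, and the level fell to 70.3% of wt/fl (log2 fold change -0.51 ± 0.10, SE, adjusted p = 7.54e-04 in edgeR). *Kif20a* was at 86.9 and 49.7 CPM with Gdf9-Cre and at 50.02 and 135 CPM with Zp3-Cre, so 3 of 4 libraries lay below wt/fl and the fourth within it, with a log2 fold change of -0.60 ± 0.16 (SE, adjusted p = 0.0213 in edgeR).

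For the other called kinesins the values are given by driver. *Cenpe* was at 438 and 371 CPM with Gdf9-Cre, within or near the wt/fl range of 382 to 482 CPM, and at 205 and 257 CPM with Zp3-Cre. *Kif20b* was at 279 and 221 CPM with Gdf9-Cre and at 97.0 and 168 CPM with Zp3-Cre, beside 216 to 263 CPM in wt/fl. *Kif23* was at 729 and 575 CPM with Gdf9-Cre and at 418 and 534 CPM with Zp3-Cre, beside 679.6 to 743 CPM in wt/fl. In each of these 3 genes, both Zp3-Cre values were under the lowest wt/fl value, and a Gdf9-Cre library lay within the wt/fl range for *Cenpe*, *Kif20b* and *Kif23*. For the mean of both groups the log2 fold change was -0.46 ± 0.10 for *Cenpe* (SE, adjusted p = 0.00404 in edgeR), -0.41 ± 0.11 for *Kif20b* (SE, adjusted p = 0.0328 in edgeR) and -0.35 ± 0.10 for *Kif23* (SE, adjusted p = 0.0345 in edgeR).

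These calls rested on few libraries. Without replicate 2 of fl/fl Gdf9-Cre, or without replicate 1 of fl/fl Zp3-Cre, only *Kif22* was called, and the same held when only the groups compared were fitted or when libraries whose names share a prefix were summed. These replicates were the lower of their pair for each of the 5 genes. They held 118 and 119.6 CPM of *Kif2c* and 124 and 96.7 CPM of *Kif18a*, which in the other fl/fl libraries stood at 179.8 and 201 CPM and at 177 and 219 CPM.

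Each driver was then set against wt/fl on its own and against the other, comparisons added after the data were seen. With Gdf9-Cre 2 kinesins fell against wt/fl, *Kif20a* (log2 fold change -0.82 ± 0.20, SE, adjusted p = 0.0154 in edgeR) and *Kif22* (log2 fold change -0.55 ± 0.13, SE, adjusted p = 0.00768 in edgeR), where 1.48% of all genes were called and 0.939% as lower. With Zp3-Cre 5 fell, where 2.27% of all genes were called and 1.23% as lower. These were *Cenpe* and *Kif20b*, to 55.1% and 54.9% of wt/fl, and *Kif3a*, *Kif23* and *Kif22*, to 62.1%, 67.1% and 72.3%, with adjusted p between 8.54e-06 and 0.0250 in edgeR.

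*Kif3a* is outside the rule for named genes and was named after its values were seen. Tested directly, 3 kinesins were lower with Zp3-Cre than with Gdf9-Cre and 0 were higher, where 0.891% of all genes were called and 0.586% as lower. An unadjusted p under 0.05 was held by 6 kinesins and by 1659 of 23225 genes. DESeq2 called 4 kinesins, and its count over all genes is not given for this comparison. For the mean of the fl/fl groups against wt/fl, DESeq2 called 1109 genes where edgeR called 647. *Kif20b* was at 53.0% of its level with Gdf9-Cre (log2 fold change -0.91 ± 0.16, SE, adjusted p = 4.58e-04 in edgeR) and *Cenpe* was at 57.1% (log2 fold change -0.81 ± 0.15, SE, adjusted p = 4.73e-04 in edgeR). *Kif3a* was at 60.5 and 57.6 CPM with Zp3-Cre and at 106 and 88.5 CPM with Gdf9-Cre, beside 84.7 to 104 CPM in wt/fl, and stood at 60.8% of the Gdf9-Cre level (log2 fold change -0.72 ± 0.17, SE, adjusted p = 0.0175 in edgeR). The 2 libraries of each driver did not overlap for these 3 genes. *Cenpe* was called whichever of the 4 libraries was left out, *Kif20b* was not called without replicate 1 of fl/fl Zp3-Cre, and *Kif3a* only remained without replicate 2 of fl/fl Gdf9-Cre. A fit that leaves 1 library in a group takes its spread from the other groups.

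**Figure D4:**
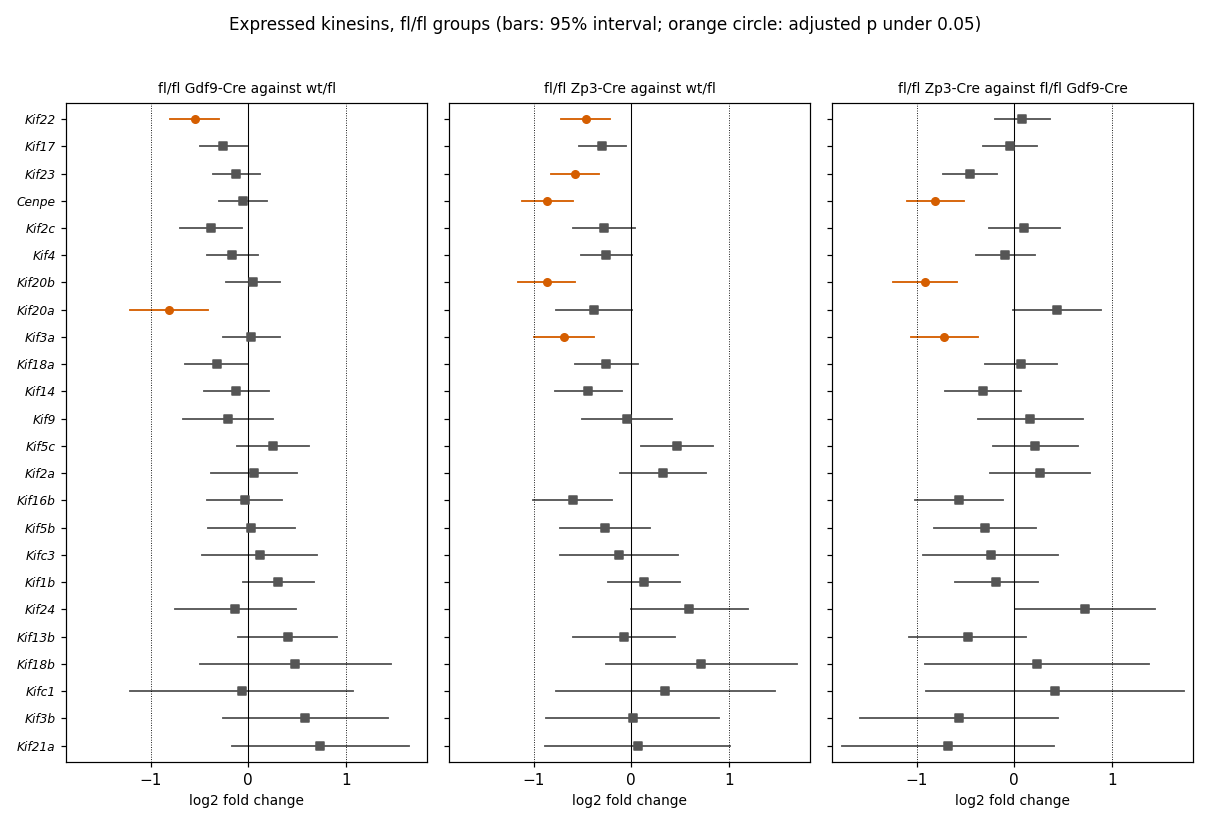
Log2 fold change of the 24 expressed kinesins in fl/fl Gdf9-Cre against wt/fl, fl/fl Zp3-Cre against wt/fl and fl/fl Zp3-Cre against fl/fl Gdf9-Cre, with bars for the 95% interval and orange circles for an adjusted p under 0.05 in edgeR. *Kif20a* and *Kif22* pass with Gdf9-Cre, *Cenpe*, *Kif20b*, *Kif3a*, *Kif23* and *Kif22* pass with Zp3-Cre, and *Cenpe*, *Kif20b* and *Kif3a* pass between the drivers.

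Against fl/del Spo11-Cre, the group with the least *Kif11*, edgeR called 0 of 38 kinesins in the mean of the fl/fl groups, where 2.90% of all genes were called. At an unadjusted p under 0.05 there were 8, beside 3254 of the 23225 genes tested. DESeq2 called 4, which were *Cenpe*, *Kif20b*, *Kif22* and *Kif23*. The share of all genes called is not given for DESeq2 here or for the fits that follow. These counts of kinesins can thus not be set against it. Leaving out replicate 1 of fl/fl Gdf9-Cre gave 4 called and leaving out replicate 2 of fl/fl Zp3-Cre gave 6, while without either of the other two 0 were called. For *Kif22* the log2 fold change was -0.28 ± 0.10 (SE, adjusted p = 0.123 in edgeR).

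Of the 24 expressed kinesins, the 4 with the lowest levels varied most from library to library. Over 21 libraries the CV of the CPM was 46.4% for *Kifc1*, 39.9% for *Kif18b*, 39.0% for *Kif21a* and 34.0% for *Kif3b*, beside 14.4% for *Kif22*, 10.2% for *Kif17* and 12.3% for *Kif23*.

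The sequences before the transcript starts are given for *Kif11* and the kinesins that edgeR called in a fl/fl comparison, so that the genes behind those calls can be read side by side. They are the 100 bases before the RefSeq start on GRCm38.p6, written 5′ to 3′ on the gene's strand, with capitals for the CCAAT box (CCAAT, or ATTGG on the other strand) and for the letters TTTGAA (or TTCAAA), which are part of the cell cycle homology region. *Kif20a* had no entry. For *Kif22* and *Cenpe* the RefSeq start lies inside the annotated gene span used here, so the ends of their sequences fall within it. That part holds the marked TTCAAA of *Kif22* and the marked CCAAT of *Cenpe*.

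Kif11 (chr19:37376282-37376381, plus strand): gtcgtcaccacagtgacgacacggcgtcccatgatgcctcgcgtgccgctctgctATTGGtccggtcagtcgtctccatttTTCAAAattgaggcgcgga

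Kif22 (chr7:127042421-127042520, minus strand): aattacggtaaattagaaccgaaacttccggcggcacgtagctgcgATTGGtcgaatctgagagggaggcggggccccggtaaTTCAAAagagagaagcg

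Cenpe (chr3:135212463-135212562, plus strand): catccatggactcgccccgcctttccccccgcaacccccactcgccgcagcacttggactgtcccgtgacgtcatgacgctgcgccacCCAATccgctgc

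Kif23 (chr9:61946800-61946899, minus strand): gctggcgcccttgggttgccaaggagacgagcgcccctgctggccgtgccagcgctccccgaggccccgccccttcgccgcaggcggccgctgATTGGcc

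Kif20b (chr19:34922258-34922357, plus strand): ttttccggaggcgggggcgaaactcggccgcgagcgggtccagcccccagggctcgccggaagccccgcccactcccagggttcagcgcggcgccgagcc

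Kif3a (chr11:53567269-53567368, plus strand): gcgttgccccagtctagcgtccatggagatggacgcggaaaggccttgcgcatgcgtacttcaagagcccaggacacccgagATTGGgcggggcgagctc

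*Kif22* and *Kif11* held both motifs in these 100 bases, *Cenpe*, *Kif23* and *Kif3a* held a CCAAT box only, and *Kif20b* held neither. Over the RefSeq windows of 300 bases (250 before and 50 after the start, both strands), the CCAAT box was found in 37.4% of 32851 promoters and TTTGAA in 17.9%. Of 37 windows of 33 listed kinesins 45.9% held the CCAAT box and 35.1% TTTGAA. Among the windows of the 5 called kinesins with an entry, 4 held the CCAAT box and 3 TTTGAA. The 100 bases above thus leave out some matches. These matches describe letters in a window and are not binding sites.

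Other motors and partners of the kinesins were read from 3 lists, which share *Kifap3* and *Numa1*. Of 12 kinesin light chains, accessory subunits and adaptors, 10 were tested and 0 were called by edgeR in any of the 6 comparisons. Of 27 genes of cytoplasmic dynein and dynactin, all were tested, and 2 were called in wt/fl Spo11-Cre against wt/fl, where 2.19% of all genes were called. *Ndel1*, a dynein regulator, fell to 70.4% of wt/fl (adjusted p = 0.00496 in edgeR) and *Actr10*, a dynactin subunit, rose to 135% (adjusted p = 0.0287 in edgeR). *Ndel1* was called with any of the 17 libraries left out and *Actr10* in 12 of these 17 fits, an alternative added after the data were seen. In the fl/fl groups, where 2.79% of all genes were called, 1 of the 27 was called, a share near that of all genes. It was *Actr1a*, the filament subunit of dynactin, which fell to 63.2% of wt/fl (adjusted p = 5.43e-04 in edgeR) and was called with any of the 21 libraries left out.

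Of 12 spindle partners of mitotic kinesins, all were tested and 3 were called in the fl/fl groups against wt/fl, where 2.79% of all genes were called, and 0 in the other 5 comparisons. *Tpx2*, which targets Aurora A and KIF15 to spindle microtubules, fell to 78.0% of wt/fl (adjusted p = 0.0457 in edgeR), and *Dlgap5*, which encodes the microtubule stabilizer HURP, fell to 73.0% (adjusted p = 0.0226 in edgeR). *Clasp2*, a plus-end stabilizer with a mean of 0.706 TPM in wt/fl, rose to 215% (adjusted p = 0.0493 in edgeR). With each of the 21 libraries left out in turn, *Dlgap5* was called in 17 fits, *Clasp2* in 7 and *Tpx2* in 3. Without replicate 2 of fl/fl Gdf9-Cre the adjusted p in edgeR was 0.315 for *Dlgap5* and 0.187 for *Tpx2*, and without replicate 1 of fl/fl Zp3-Cre it was 0.322 for *Dlgap5*, 0.497 for *Tpx2* and 0.331 for *Clasp2*. The median log2 fold change of these 12 genes was -0.11 there, beside -0.03 for all genes.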

How the data were processed

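After trimming with fastp and alignment to GRCm38 by HISAT2 2.2.1, the authors used featureCounts 2.0.3 with Ensembl release 93 to count unique alignments. The deposited counts over all exons, not normalized, and the TPM values the authors deposited beside them were used for 21 libraries. How the TPM were computed is not given in the sources used here, but 95.6% of genes matched the exon length of GENCODE M21 within 1% in the library checked. Counts were 1.95 times those of another deposited count table (median over genes), so a read pair may be counted more than once, and an alternative used counts of about 1 per read pair.

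edgeR 4.0.16 in R 4.3.3 (TMM, quasi-likelihood test, Benjamini-Hochberg adjustment over all genes) was run after leaving out genes detected in fewer than 3 libraries, on 17 libraries for the Spo11-Cre background and on 21 for the fl/fl groups. DESeq2 1.42.0, RLE factors, other filters, other sets of libraries, summed libraries with a shared name prefix, a replicate block and leaving out each library were alternatives. Log2 fold changes are given for kinesins with an adjusted p under 0.05 in a comparison and for 11 spindle motors in fl/del Spo11-Cre, with values per library for these and for the 5 highest in wt/fl. The members, lists and tests were chosen with earlier results of these data known. The scripts were tested on simulated counts. Figures were drawn with matplotlib 3.10.9.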

Additional observations from a re-analysis of the deposited data

Results flagged for a closer look

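In 5 of 56 groups of 4 or 5 libraries, taken over 14 genes, a library stood apart from the rest of its group by Dixon's test, which chance does in about 1 of 20 groups. *Cenpe* was at 418 CPM in replicate 2 of fl/del Spo11-Cre, with the others at 363 to 368 CPM. *Kif17* was at 465 CPM in replicate 1 of wt/fl Spo11-Cre, with the others at 372 to 392 CPM, and at 330.1 CPM in replicate 3 of fl/del Spo11-Cre, with the others at 390.3 to 393 CPM. *Kif4* was at 182 CPM in replicate 5 of wt/fl Spo11-Cre, with the others at 209.9 to 219 CPM. *Kifc1* was at 5.31 CPM in replicate 4 of fl/del, with the others at 2.25 to 2.66 CPM.

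Between the drivers of the fl/fl oocytes 3 kinesins differed in the direct test of edgeR, Zp3-Cre against Gdf9-Cre. The log2 fold change was -0.81 for *Cenpe* (adjusted p = 4.73e-04 in edgeR), -0.91 for *Kif20b* (adjusted p = 4.58e-04 in edgeR) and -0.72 for *Kif3a* (adjusted p = 0.0175 in edgeR), with 2 libraries of each driver, both lower with Zp3-Cre.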

How the results depend on the processing

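The count of kinesins called in wt/fl Spo11-Cre, 2 as reported, was 4 in DESeq2, 1 with all 21 libraries and 1 to 3 with each library left out, the 1 without replicate 4 of wt/fl. In fl/del Spo11-Cre against wt/fl, 0 as reported, it was 1 (*Kif17*) in DESeq2, with no filter on low counts and with about 1 count per read pair, and 0 to 1 with each library left out. The interaction gave 1 (*Kif22*) in DESeq2 and 0 to 0 with each library left out. The mean of the fl/fl groups against wt/fl, 5 as reported, gave 3 with filterByExpr, 1 with only the groups compared, 1 with shared name prefixes summed and 1 to 7 with each library left out, the 7 without replicate 2 of fl/fl Zp3-Cre. It was 3 without any 1 of the wt/fl libraries, replicate 3 or 4 of wt/fl Spo11-Cre or replicate 3 of fl/del Spo11-Cre. Added after seeing the data, Gdf9-Cre alone gave 2, the drivers against each other gave 2 to 4 with each fl/fl library left out, and the fl/fl groups against fl/del Spo11-Cre gave 4 in DESeq2 and 0 to 6. The cause of these shifts was not tested. Other counts of calls, in 155 cases, stayed within 1.5 times.

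With the replicate number as a block, *Kif17* made the count 1 in fl/del Spo11-Cre against wt/fl, and no other count of kinesins moved by over 1.5 times. Numbers did not pair libraries, since 42 same-numbered pairs of different groups had a median r of -0.00057, from -0.18 to 0.14.

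In fl/del Spo11-Cre against wt/fl, log2 fold changes near 0 changed sign when a library was left out, from -0.15 to 0.016 for *Kif2a* (above 0 without replicate 2 of wt/fl or replicate 3 of fl/del Spo11-Cre), from -0.078 to 0.012 for *Kif20b* (without replicate 3 of wt/fl) and from -0.11 to 0.0096 for *Kif23* (without replicate 2 of fl/del Spo11-Cre). Of single genes, 38 values lost their call and 440 were the same, either called or uncalled in both fits. These 440 include values of the spindle motors in fl/del Spo11-Cre against wt/fl, which had no call to lose. The expressed count of 24 was 27 at 0.5 TPM and 24 to 25 with each wt/fl library left out.

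Over all genes, calls in the order wt/fl Spo11-Cre, fl/del and fl/del Spo11-Cre against wt/fl, the Spo11-Cre groups, the interaction and fl/fl were 491, 5, 44, 8, 23 and 647, against 931, 25, 166, 14, 95 and 1109 in DESeq2, 742, 80, 185, 39, 138 and 787 with no filter, and 454, 96, 230, 29, 96 and 824 with the block. filterByExpr gave 2, 29, 4 and 2 from fl/del to the interaction, all 21 libraries gave 252 in wt/fl Spo11-Cre, 5 between the Spo11-Cre groups and 4 in the interaction, and about 1 count per pair gave 83 in fl/del Spo11-Cre and 42 in the interaction. Summed prefixes gave 11 in the interaction and 233 in fl/fl, and only the groups compared gave 238 in fl/fl. Depth sets the precision of low kinesins such as *Kif15*, with 15 to 103 counts a library.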
